A study of Mus musculus with 288 samples.

Results

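The surfactant protein genes of the mouse lung were followed here through 227 single sorted cells: Sftpc, Sftpb, Sftpa1 and Sftpd, 4 of the 24781 genes in the count table. The 4 genes were taken by name, and all 4 were found. Surfactant lines the alveoli and lowers surface tension at the air-liquid interface. SP-B and SP-C, the products of Sftpb and Sftpc, are small hydrophobic proteins cut from larger precursors and packed with phospholipid into lamellar bodies, the storage organelles of alveolar type 2 (AT2) cells. SP-A and SP-D, the products of Sftpa1 and Sftpd, are soluble collectins, lectins with a collagen-like stem that bind sugars on microbes. Sftpc is the classical AT2 gene, whereas Sftpb, Sftpa1 and Sftpd are known to be made by club cells of the airway as well.

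All cells came from C57BL/6 mice aged 4 months that carried Scgb1a1-CreER and Rosa26-mTmG, with no second genotype, treatment or age in the series. In Scgb1a1-CreER, the club cell secretoglobin promoter drives a recombinase that a drug activates, and Rosa26-mTmG switches from a red to a green membrane protein once recombined. When the drug was given is not in the labels used here. By their labels, the sorted cells were Epcam positive, CD45 and CD31 negative, low in CD24 and Scgb1a1 positive, so alveolar cells in this set are those that passed such a gate and not a sample of all AT2 cells. A sorted cell was placed in each of 286 wells, and 2 negative control wells received none. No label names the animal of a cell, so all cells count as 1 sample and no test was made over them.

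A well was kept when its total exceeded 2340 counts, 10 times the total of the richer control. The 227 kept wells held 2384 to 15088 counts (median 5356). Wells with at least 1% of their counts in Sftpc are called Sftpc-rich (63 wells, median total 3529), and those with at least 1% in Scgb3a1, the gene of a secretoglobin made by airway secretory cells, are called Scgb3a1-rich (74 wells, median 6940.5). The 90 remaining kept wells are called other wells (median 5406), and no well passed both limits. The Scgb3a1-rich and the other wells together are called airway wells for short (164 wells), with 6 to 4270 counts of Scgb1a1 (median 1691.5). The name is not borne out in 4 other wells that held 6 to 24 Scgb1a1 counts, near the 20 and 18 counts of the controls, and those 4 wells held 4 counts of surfactant protein genes in all. The levels of Sftpc and Scgb3a1 themselves chose these classes, so they are given as a description and support nothing. Of the 16 AT2 markers listed (Lyz2, Napsa, Lamp3, Slc34a2 and others), 16 were at least 2-fold higher in Sftpc-rich than in other wells, and 13 of 13 measured club markers were at least 2-fold lower. Over all 3854 genes measured in that contrast, 17.4% were at least 2-fold higher and 9.68% lower. The club markers still summed to 60961 CPM (a share of all counts, where 10000 CPM is 1%) in Sftpc-rich wells, against 309322 CPM in Scgb3a1-rich and 387440 CPM in other wells, and the AT2 markers to 43436, 1083 and 2557 CPM. Few wells carry the club sum of the Sftpc-rich class: its median well was at 20590 CPM, and the 3 wells with the lowest Sftpc shares held 5064 of its 10817 Scgb1a1 counts. The totals of those 3 wells were 8806, 6906 and 6557 counts, above the class median of 3529. Whether they held a mix of cells was not tested. Of the other wells, 7 of 90 held 5 or more counts of the ciliated genes Foxj1, Tppp3 and Ccdc153. The leukocyte gene Ptprc, the endothelial gene Pecam1 and the basal gene Krt5 had 0 counts in all 3 classes, and the summed immune, endothelial and mesenchymal markers stayed between 0 and 29.7 CPM in each. Basal markers were not all absent. They summed to 265 CPM in Scgb3a1-rich wells (up to 5594 in a well, median 0), 15.8 in other and 4.15 in Sftpc-rich wells. Of 2 basal genes measured in Scgb3a1-rich over other wells, 2 were at least 2-fold higher, against 8.13% of 4536 measured genes.

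All 4 genes are protein coding and, in GENCODE M21 (GRCm38, the assembly of mm10), overlap no other annotated gene. Sftpc lies on chromosome 14 from 70520949 to 70524081 on the minus strand. Sftpb lies on chromosome 6 from 72304610 to 72314371 on the plus strand. Sftpa1 and Sftpd also lie on chromosome 14, Sftpa1 from 41131782 to 41136452 on the plus strand and Sftpd from 41172214 to 41185149 on the minus strand. Between these genes lie 35761 bases, and whether that stretch holds other genes was not checked. The promoter table of RefSeq (build GRCm38.p6) held 2 of the 4 genes, Sftpb and Sftpa1. These are also the pair whose levels part most between the airway classes, and for that reason the 250 bases before their RefSeq starts are shown. RefSeq places the start of Sftpa1 slightly inside the gene as GENCODE bounds it, so the end of that window overlaps the coordinates above. Both are on the plus strand, 5′ to 3′, Sftpb at chr6:72304360-72304609 and Sftpa1 at chr14:41131538-41131787. Capitals mark matches, on either strand, to CAAG (the core letters bound by NKX2-1), TGTTT (a forkhead core) and TATAA.
Sftpb: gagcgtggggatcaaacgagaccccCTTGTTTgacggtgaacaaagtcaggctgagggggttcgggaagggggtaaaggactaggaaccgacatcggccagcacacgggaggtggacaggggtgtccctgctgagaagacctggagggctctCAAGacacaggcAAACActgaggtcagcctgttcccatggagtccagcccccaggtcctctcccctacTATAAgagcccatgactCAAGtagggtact
Sftpa1: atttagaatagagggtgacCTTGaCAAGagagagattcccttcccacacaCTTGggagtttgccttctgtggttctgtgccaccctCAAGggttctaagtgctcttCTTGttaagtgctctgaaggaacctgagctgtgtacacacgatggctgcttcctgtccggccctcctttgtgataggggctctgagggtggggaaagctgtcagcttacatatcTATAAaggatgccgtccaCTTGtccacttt
The window before Sftpb held 3 matches to CAAG, 2 to TGTTT (1 of them sharing 2 letters with a CAAG match on the other strand) and 1 to TATAA. The window before Sftpa1 held 6, 0 and 1. Of 32851 promoter windows of the same length in the table, 86.6% held CAAG, 46.4% held TGTTT and 22.8% held TATAA. At least 6 matches to CAAG were held by 2.90% of them, at least 3 by 37.0%, and at least 2 matches to TGTTT by 18.3%. These matches describe letters and were not tested for binding.

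Levels are pooled CPM: the counts of a gene in all wells of a class as a share of all counts there. Each has an exact Poisson 95% interval that covers counting error only. Sftpc, the source of SP-C, separated the wells into a high and a near-zero group. It had 152241 CPM (150687 to 153808) in Sftpc-rich wells, 93.5 CPM (69.0 to 124) in Scgb3a1-rich wells and 281 CPM (237 to 331) in other wells. Single Sftpc-rich wells held 182 to 1174 Sftpc counts (median 554), Scgb3a1-rich wells 0 to 4 (median 0) and other wells 0 to 22 (median 0.5). Few wells lay near the limit. The 3 lowest shares inside the Sftpc-rich class were 2.07%, 5.36% and 6.70%, the 3 highest outside it were 0.734%, 0.442% and 0.233%, and 57 of the 63 Sftpc-rich wells were at 10% or above. Of the 164 airway wells, 156 were under 0.1%, and 95 of the 190 Sftpc counts of airway wells lay in 10 wells. Around the limit for Scgb3a1, the 3 lowest shares inside were 1.01%, 1.02% and 1.19% and the 3 highest outside were 0.876%, 0.200% and 0.154%.

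The share of airway wells with a count of Sftpc was no higher than in wells that hold almost no RNA. A count of Sftpc was present in 43.2% of Scgb3a1-rich wells (Clopper-Pearson 95% interval 31.8 to 55.3%), at a median total of 6940.5, and in 50.0% of other wells (39.3 to 60.7%), at a median total of 5406. Of the 11 sorted wells with no more counts than the richer control, 54.5% (23.4 to 83.3%) held one as well, although their median total was 91. The airway shares do not exceed that, but the interval over 11 wells is wide. These wells had also received a sorted cell, and they held 8780 CPM of Sftpc (4210 to 16146). The comparison therefore cannot show what a single count of Sftpc means, and such a count is not read as expression. Single other wells held up to 22 Sftpc counts, against at most 3 in a nearly empty well, and whether those wells express the gene was not tested. The 2 control wells, with totals of 41 and 234 counts, held 0 counts of Sftpc, Sftpa1 and Sftpd, and 1 and 0 counts of Sftpb. Zeros at such totals carry little weight.

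Sftpb, the source of SP-B, was highest in Sftpc-rich wells, intermediate in other wells and lowest in Scgb3a1-rich wells. Its level was 14966 CPM (14481 to 15463) in Sftpc-rich wells, 926 CPM (844 to 1013) in Scgb3a1-rich wells and 5358 CPM (5158 to 5563) in other wells. Well by well, Sftpc-rich wells ranged from 6343 to 25000 CPM (median 16107), Scgb3a1-rich wells from 0 to 6007 (median 340) and other wells from 0 to 12791 (median 5191). All 63 Sftpc-rich wells therefore lay above all 74 Scgb3a1-rich wells, while 46 of them lay above every other well. Only 4 of the 74 Scgb3a1-rich wells exceeded the median of other wells. The log2 ratio of pooled CPM was 1.48 (95% counting interval 1.41 to 1.55) for Sftpc-rich over other wells and −2.53 (−2.68 to −2.39) for Scgb3a1-rich over other wells, which is 5.79-fold lower (5.25 to 6.39). Sftpc-rich over Scgb3a1-rich wells gave 4.02 (3.88 to 4.16). With the limit on totals doubled, which left 10 Sftpc-rich wells, the ratio over other wells was 1.00 and just short of 2-fold. With both class limits at 5% in place of 1%, Scgb3a1-rich over other wells gave −3.36.

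Sftpa1, the source of the collectin SP-A, was also highest in Sftpc-rich wells, but its level in the 2 airway classes was close. It had 22150 CPM (21559 to 22753) in Sftpc-rich wells, 4753 CPM (4566 to 4945) in Scgb3a1-rich wells and 3988 CPM (3816 to 4166) in other wells. Wells ranged from 4997 to 47100 CPM (median 21098) in the Sftpc-rich class, from 0 to 20142 (median 3630) in the Scgb3a1-rich class and from 0 to 14627 (median 3343) in the other class. The airway classes overlapped over nearly their whole range, with 39 of 74 Scgb3a1-rich wells above the median of other wells and 2 above the highest other well. The log2 ratio was 2.47 (2.40 to 2.55) for Sftpc-rich over other wells and 0.25 (0.17 to 0.34) for Scgb3a1-rich over other wells, well under 2-fold. Sftpc-rich over Scgb3a1-rich wells gave 2.22 (2.15 to 2.29), the smallest of the 4 genes.

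Sftpd, the source of the collectin SP-D, followed the order of Sftpb. It had 5954 CPM (5650 to 6270) in Sftpc-rich wells, 795 CPM (720 to 876) in Scgb3a1-rich wells and 2084 CPM (1960 to 2214) in other wells. Wells ranged from 2195 to 13620 CPM (median 5970), from 0 to 2326 (median 689) and from 0 to 7672 (median 1602) in the Sftpc-rich, Scgb3a1-rich and other class. Of the Sftpc-rich wells, 62 of 63 lay above every Scgb3a1-rich well, but only 14 lay above every other well. The log2 ratio was 1.51 (1.40 to 1.63) for Sftpc-rich over other wells, −1.39 (−1.56 to −1.22) for Scgb3a1-rich over other wells and 2.90 (2.75 to 3.07) for Sftpc-rich over Scgb3a1-rich wells. The other well with the most Sftpd, at 7672 CPM, was also the one with the highest Sftpc share outside the Sftpc-rich class, 0.734%. It held 22, 22, 42 and 23 counts of Sftpc, Sftpb, Sftpa1 and Sftpd.

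**Figure D1:**
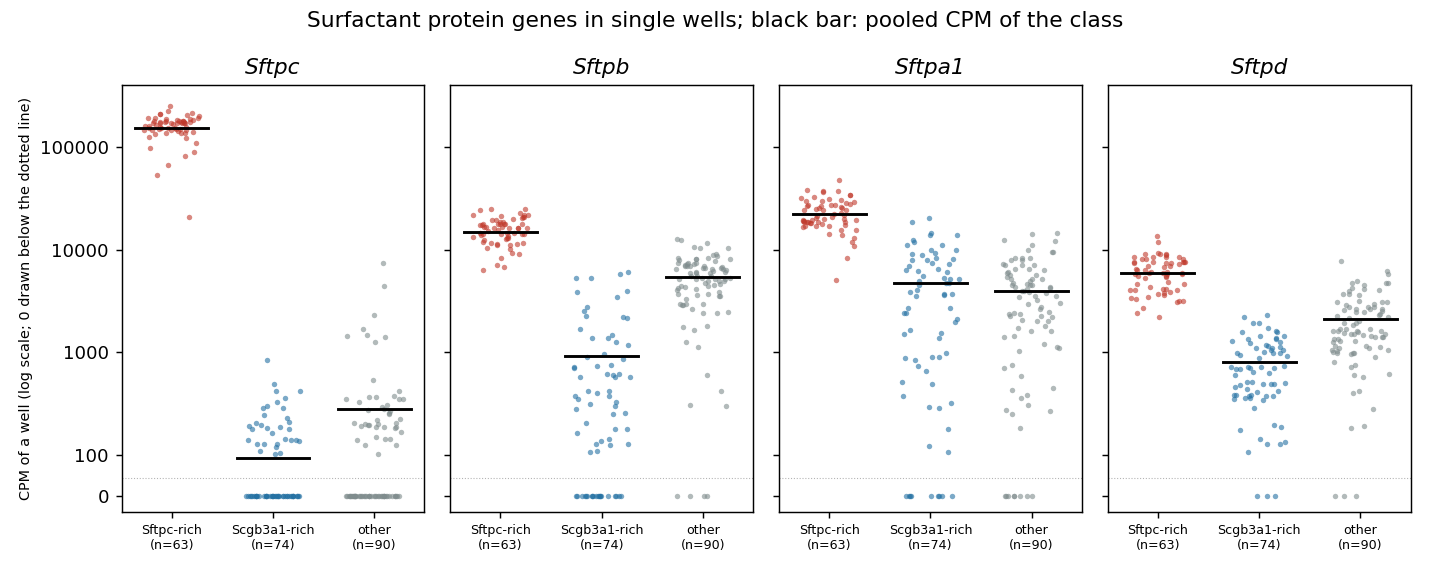
CPM of the 4 surfactant protein genes in each kept well (points, log axis, with wells at 0 drawn below the dotted line) for 63 Sftpc-rich, 74 Scgb3a1-rich and 90 other wells; black bars are the pooled CPM of a class. Sftpb separates Scgb3a1-rich wells (pooled 926 CPM) from other wells (5358 CPM), while Sftpa1 has 4753 and 3988 CPM in the same classes.

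Counted against all genes, the members were called by size alone, at least 2-fold with at least 20 counts in both classes together. In Sftpc-rich over other wells, 4 of 4 members were higher, with Sftpc so by the choice of the class, where 17.4% of 3854 measured genes were higher and 9.68% lower. In Scgb3a1-rich over other wells, 0 of 4 members were higher and 3 of 4 were lower (Sftpc, Sftpb and Sftpd), where 8.13% of 4536 measured genes were higher and 9.24% lower. The Sftpc value of −1.59 rests on 8 other wells with 0.1% to 1% of their counts in Sftpc, which held 88 of the 142 Sftpc counts of that class. Without these 8 wells, an alternative chosen after the data were seen, other wells were at 116 CPM and the log2 ratio was −0.30 (−0.90 to 0.28). In Sftpc-rich over Scgb3a1-rich wells, 4 of 4 members were higher, where 19.7% of 3834 measured genes were higher and 13.2% lower. These contrasts share wells, and their values are given side by side without a comparison between them. Sftpc alone took 15.2% of the counts of Sftpc-rich wells, and scaling by the total left the median log2 ratio of all measured genes at 0.18 in Sftpc-rich over other wells, against −0.14 with TMM factors and −0.05 with DESeq2 size factors. Relative to that median, the log2 ratios were 1.31 for Sftpb, 2.30 for Sftpa1 and 1.34 for Sftpd. A scaling shifts all genes of a contrast by 1 factor, so these relative values are the same under each of them by construction. The split of all calls moved from 671 higher and 373 lower to 445 and 561 with TMM factors and 484 and 498 with DESeq2 size factors. For Sftpc-rich over Scgb3a1-rich wells it moved from 757 and 506 to 491 and 763 and to 536 and 715.

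The 4 genes were found together in every Sftpc-rich well, and airway wells mostly shared Sftpb, Sftpa1 and Sftpd without more than traces of Sftpc. At least 3 counts of each of the 4 were present in 63 of 63 Sftpc-rich wells, 1 of 74 Scgb3a1-rich wells and 7 of 90 other wells. The set of Sftpb, Sftpa1 and Sftpd, with or without Sftpc, reached 3 counts each in 39.2% of Scgb3a1-rich wells (28.0 to 51.2%) and in 77.8% of other wells (67.8 to 85.9%). With a limit of 1 count these shares were 70.3% (58.5 to 80.3%) and 88.9% (80.5 to 94.5%). After thinning each well to 3151 counts, which left 44 Sftpc-rich, 74 Scgb3a1-rich and 86 other wells deep enough, they were 55.4% (43.4 to 67.0%) and 88.4% (79.7 to 94.3%). The share was lower in Scgb3a1-rich wells at each of these limits, although their totals were higher. These intervals are over wells of 1 sample and are no test of the difference.

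The member most often missing from Scgb3a1-rich wells, other than Sftpc, was Sftpb. A count of Sftpb was present in 73.0% of Scgb3a1-rich and 95.6% of other wells, and at least 3 counts in 47.3% and 93.3%. Sftpa1 was present in 87.8% of Scgb3a1-rich and 91.1% of other wells, and at 3 counts or more in 79.7% and 82.2%. Sftpd had a count in 95.9% of Scgb3a1-rich and 96.7% of other wells, and 3 counts or more in 74.3% and 91.1%. No single order of the genes held: at equal depth Sftpd and Sftpa1 were each present in 81.1% of Scgb3a1-rich wells, and Sftpb in 66.2%. In the 11 nearly empty wells, a count of each of these 3 genes was present in 3 wells (27.3%), and no such well held 3 counts of any. No surfactant gene at all was counted in 1 of 74 Scgb3a1-rich wells and 2 of 90 other wells. Those 2 other wells held 15 and 6 counts of Scgb1a1 and are among the wells in which the airway name is not borne out.

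**Figure D2:**
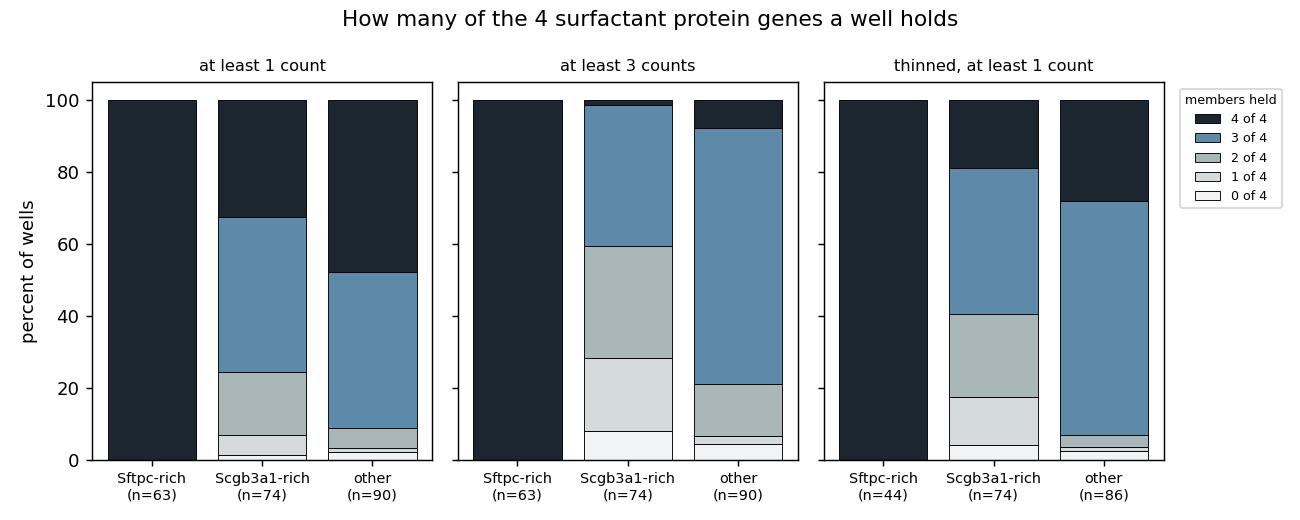
Share of wells (percent) that hold 0 to 4 of the 4 genes in Sftpc-rich, Scgb3a1-rich and other wells, at a limit of 1 count, at a limit of 3 counts and with 1 count after thinning to equal depth. All Sftpc-rich wells hold 4 of 4 in each panel, and at 3 counts 39.2% of Scgb3a1-rich wells hold 3 of 4, against 71.1% of other wells.

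Airway wells held Sftpb, Sftpa1 and Sftpd whether or not they held a count of Sftpc. Counts were primed at the poly(A) tail and are not divided by gene length, so a proportion is set here only beside the same proportion in another class. The 87 airway wells without any Sftpc count held 2811 CPM of Sftpb (2670 to 2957), 3927 of Sftpa1 (3760 to 4100) and 1147 of Sftpd (1058 to 1242), while the 77 with a count held 3465, 4858 and 1747 CPM. The classes differed. In Scgb3a1-rich wells, Sftpb was higher without a Sftpc count, at 1140 CPM (1021 to 1269) in 42 wells against 644 (543 to 759) in 32. Sftpa1 had 4509 and 5073 CPM there, and Sftpd 762 and 838. In other wells, those without a Sftpc count held 4847, 3219 and 1616 CPM of Sftpb, Sftpa1 and Sftpd. Those with a count held 5816, 4678 and 2504 CPM.

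Leaving Sftpc aside, Sftpb made up 34.7% of the counts of the 3 other genes in Sftpc-rich wells (33.8 to 35.7%), 14.3% in Scgb3a1-rich wells (13.1 to 15.5%) and 46.9% in other wells (45.6 to 48.2%). Sftpa1 made up 51.4%, 73.4% and 34.9% in the same classes, and Sftpd 13.8%, 12.3% and 18.2%. The same was seen well by well. More Sftpa1 than Sftpb counts were held by 54 of 63 Sftpc-rich wells, 61 of 74 Scgb3a1-rich wells and 25 of 90 other wells. At equal depth, 24 of 74 Scgb3a1-rich wells held at least 5 counts of Sftpa1 with at most 2 of Sftpb, a make-up found in 0 of 44 Sftpc-rich and 3 of 86 other wells. The opposite make-up, at least 5 counts of Sftpb with at most 2 of Sftpa1, was found in 1 of 74 Scgb3a1-rich and 12 of 86 other wells. These pairings were defined after the levels were known.

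**Figure D3:**
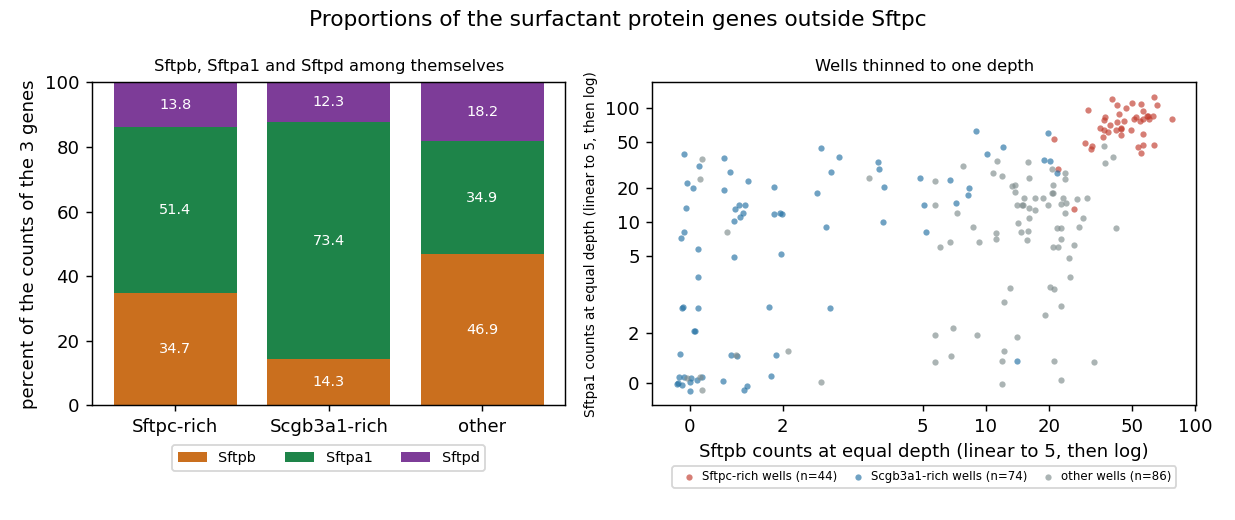
Left, percent of the summed counts of Sftpb, Sftpa1 and Sftpd in each class; right, Sftpa1 against Sftpb counts of single wells thinned to equal depth (44 Sftpc-rich, 74 Scgb3a1-rich and 86 other wells; axes linear to 5 and logarithmic above, points shifted slightly to separate them). Scgb3a1-rich wells spread along the Sftpa1 axis at low Sftpb, and Sftpb makes up 14.3% of their 3-gene counts, against 46.9% in other wells.

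Position in the table moved with the classes. The 3 successive sets of 96 columns held 6, 17 and 40 Sftpc-rich wells, 38, 31 and 5 Scgb3a1-rich wells and 38, 33 and 19 other wells. No label says what these sets are. Within the 3 sets, the log2 ratio of Sftpc-rich over other wells was 0.99, 1.32 and 2.00 for Sftpb, 1.79, 2.39 and 2.89 for Sftpa1, and 1.66, 1.32 and 1.36 for Sftpd. That of Scgb3a1-rich over other wells was −2.24, −3.29 and −0.72 for Sftpb, 0.26, 0.09 and 0.99 for Sftpa1, and −1.34, −1.41 and −0.96 for Sftpd. For Sftpa1 in the second set the counting interval of −0.04 to 0.22 includes 0, so no direction is read there. The other ratios had the same sign in every set, but Sftpb and Sftpd were less than 2-fold lower in the last set, which has 5 Scgb3a1-rich wells, and Sftpb was just short of 2-fold higher in the first, which has 6 Sftpc-rich wells. Sftpb made up 15.9%, 10.9% and 23.8% of the 3-gene counts of Scgb3a1-rich wells and 45.8%, 49.5% and 41.1% of those of other wells in the 3 sets. The 6 Sftpc-rich wells of the first set held 86358 CPM of Sftpc, against 161711 and 163499 CPM in the next sets. The part of table position in these results was not tested.

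**Figure D4:**
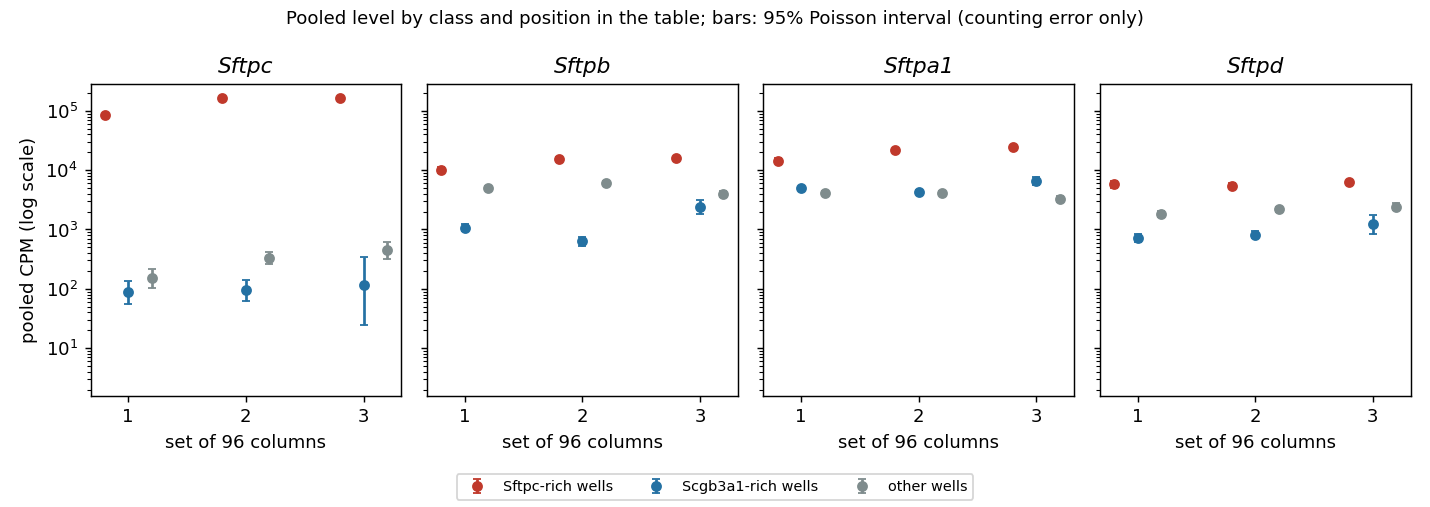
Pooled CPM (log axis) of the 4 genes in Sftpc-rich, Scgb3a1-rich and other wells within each of the 3 sets of 96 columns; bars are exact Poisson 95% intervals, often smaller than the point. Sftpb of Scgb3a1-rich wells lies below that of other wells in each set, at 1076, 631 and 2414 CPM, against 5070, 6149 and 3983 CPM.

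Within a class, members varied together to different degrees. Spearman correlations over wells thinned to equal depth are given as descriptions, since the cells share libraries and depth. Among 74 Scgb3a1-rich wells, Sftpb and Sftpa1 went together (0.57), and both ran against Bpifa1, the gene of a secreted airway surface protein (−0.55 and −0.61), and with Scgb1a1 (0.53 and 0.63). Bpifa1 took up to 220298 CPM of a well in this class, and the part of that share of the total in these values was not tested. Sftpb also ran against Scgb3a1 (−0.39), whereas Sftpa1 hardly did (−0.02). Sftpd showed no value above 0.21 in size with Sftpb, Sftpa1, Bpifa1 or Scgb1a1 in these wells. Among 86 other wells, Sftpa1 went with Sftpd (0.40), and Sftpb and Sftpa1 went with Scgb3a2, a secretoglobin of airway secretory cells (0.32 and 0.35). Among 44 Sftpc-rich wells, Sftpc went with Sftpb (0.41) and Sftpa1 (0.43) and against Scgb1a1 (−0.41), and Sftpb ran against Scgb3a2 (−0.53), which had a count in 46.0% of Sftpc-rich wells.

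The spread between wells differed as well. At equal depth, the variance of Sftpa1 counts was 15.5 times their mean in Scgb3a1-rich wells and 9.00 times in other wells. For Sftpb the same factors were 8.02 and 5.63. For Sftpd they were 1.43 and 3.12. This factor grows with the mean, which for Sftpd was 2.36 counts in Scgb3a1-rich and 6.67 in other wells, and its coefficient of variation ran the other way, at 0.78 and 0.68. In Sftpc-rich wells the factors were 3.36 for Sftpb, 7.96 for Sftpa1 and 3.22 for Sftpd.

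The genes most like each member were found by Pearson correlation over the 227 kept wells, on log-transformed counts per 10000, among 549 genes with at least 200 counts. The other members were left out of this ranking, and their values are given apart. Sftpc was most like Napsa (0.95), the aspartic protease that cleaves surfactant precursors, Slc34a2 (0.94), a phosphate transporter of AT2 cells, and Lamp3 (0.94), a membrane protein of lamellar bodies. Sftpb was most like the lung chemokine gene Cxcl15 (0.84), the cholesterol carrier gene Npc2 (0.81) and Sfta2 (0.67), a surfactant associated gene. Sftpa1 was most like Slc34a2 (0.65), Chil1 (0.64) and Napsa (0.62), and Sftpd like Cxcl15 (0.75), Napsa (0.68) and Sfta2 (0.68). Sftpc was less like each other member than like Napsa, Slc34a2 and Lamp3. Sftpb was less like each other member than like Cxcl15 and Npc2. For Sftpa1 and Sftpd, the values with other members were near those just given. Sftpc gave 0.63 with Sftpb, 0.65 with Sftpa1 and 0.72 with Sftpd. Sftpb gave 0.65 with Sftpa1 and 0.74 with Sftpd, and Sftpa1 gave 0.63 with Sftpd. Over all kept wells such values also carry the difference between classes. Within the 164 airway wells, Sftpb was most like Cxcl15 (0.74), the haptoglobin gene Hp (0.74) and Npc2 (0.73). Sftpd was most like the same 3 genes at lower values, Hp (0.58), Cxcl15 (0.53) and Npc2 (0.52), and Sftpa1 like Hp (0.47), Scgb1a1 (0.44) and the transferrin gene Trf (0.41). Sftpc was most like Napsa (0.44), Lamp3 (0.40) and Chia1 (0.37) there, at the trace counts given above. Between members in airway wells, Sftpb gave 0.58 with Sftpd and 0.43 with Sftpa1, and Sftpa1 gave 0.36 with Sftpd. Sftpc gave 0.18 with Sftpb, 0.17 with Sftpa1 and 0.33 with Sftpd there. Cxcl15 had 9515 CPM in Sftpc-rich, 286 in Scgb3a1-rich and 1542 in other wells, and Npc2 had 3519, 466 and 1773 CPM.

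Of the listed genes that process the surfactant precursors, Napsa and Ctsh were at least 2-fold higher in Sftpc-rich wells than in either airway class. Of 12 listed, 9 were measured in Sftpc-rich over other wells, 2 of them at least 2-fold higher and 1 lower (Emc3, of the membrane insertion complex, at −1.07 with 5 and 22 counts). The median log2 ratio was 0.23, against 0.18 for all measured genes, of which 17.4% were higher and 9.68% lower. Napsa had 2958 CPM in Sftpc-rich, no count among 513183 in Scgb3a1-rich wells and 25.7 CPM in other wells, a log2 ratio of 6.85 (6.06 to 7.76) for Sftpc-rich over other wells. Ctsh, a cathepsin that trims SP-B and SP-C precursors, had 873 and 293 CPM in Sftpc-rich and other wells, a log2 ratio of 1.57 (1.26 to 1.89). The chaperone gene Hspa5 gave 0.23, the cathepsin genes Ctsd and Ctsl −0.04 and −0.59, and Bri3 0.70. In Scgb3a1-rich over other wells, 0 of 9 measured genes were 2-fold higher or lower, and the median was −0.27, against −0.02 for all measured genes. In Sftpc-rich over Scgb3a1-rich wells, 4 of 9 were at least 2-fold higher (Napsa, Ctsh, Bri3 at 1.33 and Nedd4l at 1.28) and 0 lower, where 19.7% of all measured genes were higher. Ctsh gave −0.27 (−0.62 to 0.09) in Scgb3a1-rich over other wells.

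Genes of the lamellar body and of surfactant lipid transport were mostly highest in Sftpc-rich wells and lowest in Scgb3a1-rich wells, the order of Sftpb. Of 8 measured in Sftpc-rich over other wells, 5 were at least 2-fold higher (Slc34a2, Lamp3, Abca3, Adgrf5 and Atp8a1) and 0 lower, against 17.4% and 9.68% of all measured genes. The median of the list was 1.93, against 0.18 for all measured genes. Of 7 measured in Scgb3a1-rich over other wells, 0 were higher and 5 lower (Slc34a2, Abca3, Adgrf5, Atp8a1 and Atp11a), against 8.13% and 9.24% of all measured genes. The median was −1.24, against −0.02. Slc34a2, Lamp3 and Abca3 are also on the list of AT2 markers. Abca3, the lipid transporter of lamellar bodies, had 964 CPM in Sftpc-rich, 83.8 in Scgb3a1-rich and 198 CPM in other wells, with log2 ratios of 2.28 (1.94 to 2.64) for Sftpc-rich and −1.24 (−1.79 to −0.71) for Scgb3a1-rich over other wells. The phospholipid flippase gene Atp11a gave 0.44 and −1.78, Atp8a1, another of that family, 1.57 and −1.20, and Slc34a2 6.25 and −1.26 in these contrasts. Vamp8, a vesicle fusion gene, gave 0.59 and −0.03. Lamp3 had 1438 CPM in Sftpc-rich wells and 1 and 4 counts in all Scgb3a1-rich and all other wells. Of the other collectins and surfactant associated genes, only Sfta2 reached 20 counts, with 1055 CPM in Sftpc-rich, 40.9 in Scgb3a1-rich and 239 CPM in other wells.

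Transcription factors known to bind surfactant gene promoters were counted thinly. Of 15 measured in Sftpc-rich over other wells, 5 were at least 2-fold higher (Etv5, Gata6, Cebpa, Nfix and Nkx2-1) and 0 lower, against 17.4% and 9.68% of all measured genes, with a median of 0.53. With TMM factors these counts were 4 and 2, and the median was 0.22. Nkx2-1 was then at 0.87 and no longer 2-fold higher, while Klf5 (−1.27) and Nfib (−1.05) were 2-fold lower. With DESeq2 size factors Nkx2-1 was at 0.96, Klf5 at −1.18 and Nfib at −0.96. In Scgb3a1-rich over other wells, 2 of 14 measured were higher (Elf3 and Cebpb) and 1 lower (Foxa2), against 8.13% and 9.24% of all measured genes, with a median of 0.17. Etv5, an ETS factor of AT2 cells, had a log2 ratio of 5.89 in Sftpc-rich over other wells, with 170 and 6 counts. Nkx2-1, the lung epithelial homeobox factor, had 212 CPM in Sftpc-rich, 52.6 in Scgb3a1-rich and 93.0 CPM in other wells. Its log2 ratio was 1.19 (0.59 to 1.79) in Sftpc-rich and −0.82 (−1.56 to −0.11) in Scgb3a1-rich over other wells. Cebpa gave 2.09 and −0.40 in the same contrasts. Elf3, an epithelial ETS factor, gave 0.53 in Sftpc-rich and 1.46 (0.99 to 1.96) in Scgb3a1-rich over other wells. The forkhead factor Foxa2 gave −1.32 (−2.48 to −0.26) in Scgb3a1-rich over other wells, with 11 and 27 counts. Stat3, Cebpd, Nfib and Klf5 lay between −0.95 and 0.53 in Sftpc-rich and between −0.16 and 0.82 in Scgb3a1-rich over other wells.

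**Figure D5:**
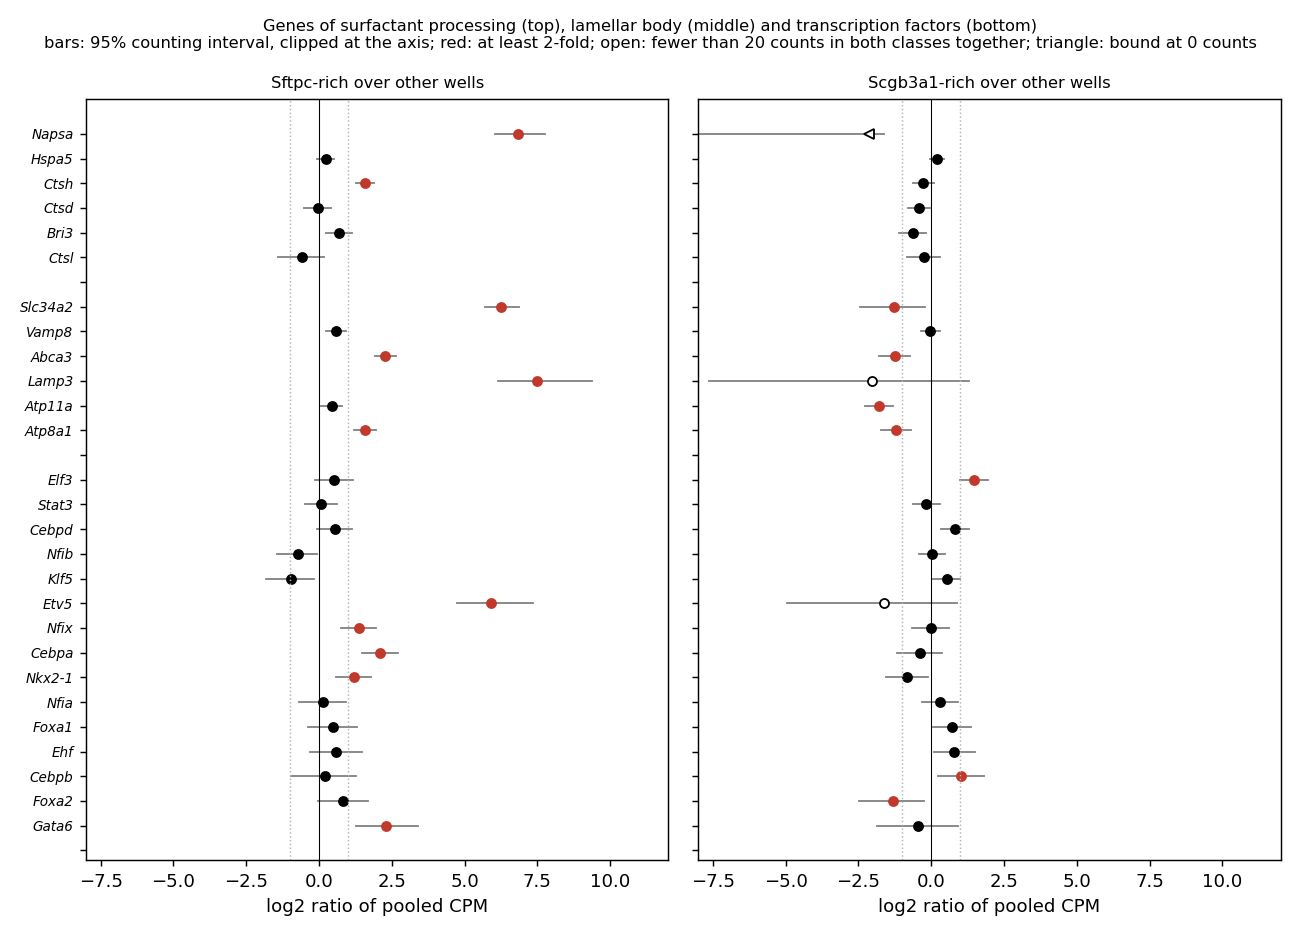
Log2 ratio of pooled CPM, with 95% counting intervals clipped at the axis, for genes of precursor processing (top), the lamellar body (middle) and transcription factors (bottom) in Sftpc-rich over other wells (left) and Scgb3a1-rich over other wells (right). Filled red points are at least 2-fold, open points have fewer than 20 counts in both classes together, and a triangle is a bound at 0 counts; Napsa lies at 6.85 on the left, and Abca3 at 2.28 on the left and −1.24 on the right.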

How the data were processed

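The authors deposited raw counts, whole numbers without normalization, of 24781 gene symbols in 288 wells. Per the submitters' processing notes the aligner was STAR, without a version, and the build mm10; annotation, counting tool and any collapse of molecular barcodes: not given in the sources used here. Primers with barcodes annealed to the poly(A) tail, per the labels' protocols. If copies made by PCR were counted separately, the intervals of CPM and ratios, which cover counting error only, are too narrow. Intervals of shares are over wells and hold no spread between animals.

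Wells with totals above 2340 counts (10 times the richer control) were kept, and classes set at 1% of the total in Sftpc or Scgb3a1. Pooled CPM had exact Poisson intervals, shares Clopper-Pearson intervals, and ratios exact conditional binomial intervals, all at 95%. A class at 0 counts was given 3 counts over the class, as a bound. With 1 sample there was no test: a gene was called at 2-fold with at least 20 counts. Shares were repeated at 3151 counts per well, the 10th percentile of kept totals, with 23 shallower wells left out (19 Sftpc-rich, 0 Scgb3a1-rich and 4 other wells). No doublet caller was run, since each well was sorted singly per the labels. Alternatives were other limits, TMM factors (edgeR 4.0.16), DESeq2 1.42.0 size factors, thinning, and leaving out wells or sets of columns; only scale factors were taken from these tools. Python 3.11.15 with numpy 2.4.6, pandas 2.3.3 and scipy 1.17.1, and R 4.3.3 were used.

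The members and gene lists were chosen with earlier results of these data known. All members are described; of the processing, lamellar body and transcription factor lists the 6 genes with most counts were named, and of other lists up to 4. Emc3, Nedd4l, Adgrf5, Gata6, Nfix, Nkx2-1, Cebpa, Cebpb and Foxa2 were named after their values were seen.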

Additional observations from a re-analysis of the deposited data

Results flagged for a closer look

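The 59 sorted wells left out for a total of 2340 counts or less (median 1035) also held surfactant gene counts, outside the classes reported. Most of these wells enter when the limit on totals is lowered. Summed over these wells there were 4443 counts of Sftpc, 484 of Sftpb, 550 of Sftpa1 and 194 of Sftpd among 60845 counts. The 2 controls held 0, 1, 0 and 0 among 275, so the sums cannot be set side by side. As a share, Sftpc had 73022 CPM (70890 to 75201) in these wells, above the interval of the controls (0 to 13414 CPM). Sftpb, at 7955 CPM, Sftpa1, at 9039, and Sftpd, at 3188, lay within the intervals of the controls (upper ends 20261, 13414 and 13414 CPM). Those intervals rest on 1, 0 and 0 counts among 275. They are so wide that lying within them cannot show whether these wells exceed the controls. The pooled levels of airway wells, 3124, 4373 and 1435 CPM for the same genes, lie within them too. At least 1% Sftpc was found in 27 of the 59 wells, which held 139391 CPM of Sftpc, 13457 of Sftpb, 14970 of Sftpa1 and 4633 of Sftpd. The 32 others held 687, 1958, 2576 and 1614 CPM.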

How the results depend on the processing

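No paired analysis was possible because the cells form 1 sample and the comparisons carry no test. Each of the 6 log2 ratios was recomputed under 23 settings, and none changed sign. Of these settings 3 could not move a value, since no well was rich in both genes and the poorer control does not set the limit. Sftpb, Sftpa1 and Sftpd in Sftpc-rich over other wells moved outside their counting interval under 12, 14 and 9 settings, and in Scgb3a1-rich over other wells under 9, 7 and 2. Leaving out either control gave the same side of 2-fold.

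For Sftpc-rich over other wells, Sftpb, Sftpa1 and Sftpd gave 1.92, 2.39 and 1.80 with classes set at 5% of the total, 1.00, 2.10 and 1.26 with the limit on totals doubled (10 Sftpc-rich wells), 1.26, 2.25 and 1.29 without Sftpc, Scgb1a1, Scgb3a1, Scgb3a2 and Rn45s in the total, 1.16, 2.15 and 1.20 with TMM factors, and 1.25, 2.24 and 1.28 with DESeq2 size factors. Within the 3 sets of columns they gave 0.99, 1.79 and 1.66, then 1.32, 2.39 and 1.32, then 2.00, 2.89 and 1.36. As a mean over wells, Sftpb gave 1.57 and Sftpa1 2.55. Thinned wells gave 2.57 for Sftpa1. Without the first set Sftpa1 gave 2.60, without the second Sftpb gave 1.64, and without the last Sftpb gave 1.27 and Sftpa1 2.21. Without the 7 other wells rich in ciliated markers, Sftpb gave 1.39 and Sftpa1 2.38; without other wells of 0.1% Sftpc or more, Sftpa1 gave 2.57 and Sftpd 1.66.

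For Scgb3a1-rich over other wells, Sftpb and Sftpa1 gave −3.04 and 0.13 with classes set at 2%, and Sftpb, Sftpa1 and Sftpd −3.36, 0.0195 and −1.63 at 5%. Thinned wells gave −2.32 for Sftpb. Within the sets, Sftpb gave −2.24, −3.29 and −0.72, Sftpa1 0.0895 in the second and 0.99 in the last, and Sftpd −0.96 in the last. Without the first set Sftpb gave −2.80, without the next −1.98, and without the last −2.73. Without the middle set Sftpa1 gave 0.39. Without the 7 ciliated-marker wells Sftpa1 gave 0.16, and without other wells of 0.1% Sftpc or more 0.35. The cause of these moves was not tested.

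Genes past 2-fold numbered 1044 in Sftpc-rich over other, 788 in Scgb3a1-rich over other and 1263 in Sftpc-rich over Scgb3a1-rich wells. With a minimum of 1 count they numbered 5208, 4309 and 5538, and with 50 counts 357, 255 and 479. The number of genes measured moved as well, to 12079, 12255 and 12076 and to 1468, 1949 and 1538, and the cause was not tested further.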
